A study of Homo sapiens with 24 samples.

Results

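Spheroids of FaDu cells given hyperthermia (HT) alone were compared with unheated FaDu spheroids across all genes, including genes that fell. The comparison was chosen by the sample labels and holds 6 of the 24 RNA-Seq samples of the study, 3 per group. FaDu is an established human cell line from a squamous carcinoma of the hypopharynx, so all values come from 1 line, and the spheroids are round aggregates of these cells grown in wells coated with agarose. The study asked how heat changes the stress response of FaDu and SAS spheroids, a pair of models of head and neck squamous cell carcinoma, and their response to irradiation (RT). Each spheroid type had 4 groups, namely control, HT, RT and HT + RT. FaDu HT spheroids were held at 42.5 °C for 60 min without irradiation, FaDu control spheroids received neither treatment, and RNA was taken 0.5 h after treatment. For values of the same genes in libraries outside the comparison, FaDu HT + RT (the same heating with a single dose of 7 Gy) was set against FaDu RT (7 Gy without heating), and SAS HT (the same heating) against SAS control, also 0.5 h after treatment. The study gives its replicates as independent experiments, and every p-value below measures the spread between these samples.

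Heat unfolds proteins, and cells answer with the heat shock response. Heat shock factor 1 (HSF1), which chaperones hold inactive in unstressed cells, is set free, forms trimers and binds heat shock elements in front of chaperone genes, whose products hold, refold or hand over unfolded proteins. Heat also activates stress kinases that switch on immediate early genes, which are transcribed without new protein synthesis, while transcription of many other genes is known to slow down. Squamous carcinomas commonly hold high levels of HSP70 and HSP27 proteins.

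Levels are given in CPM, the counts of a gene scaled to a common library total with factors fitted over the 6 libraries, for control 1 to 3 and HT 1 to 3. Log2 fold changes are HT over control with their standard error (SE). Adjusted p-values come from edgeR quasi-likelihood tests with the Benjamini-Hochberg correction over all genes tested. A gene is called altered at an adjusted p under 0.05 with a log2 fold change beyond 1 in either direction. The words rose and fell are kept for genes with an adjusted p under 0.05, whatever the size of the change. A gene list is described by its counts and its median, to be read beside all genes tested, of which 4.29% were altered upward, 0.674% were altered downward, 7.95% rose and 9.69% fell, with a median of 0.01.

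Control 1 and HT 1 stood apart from the other libraries of their groups. The first principal component (64.2% of the variance) placed the controls at -45.5, -41.9 and -41.5 and the HT libraries at 38.0, 39.3 and 51.5. The second (17.4%) placed control 1 at 30.2 and HT 1 at 33.3, and the other libraries between -18.5 and -13.8. Heat thus separated the libraries on the first axis and replicate 1 of both groups on the second. IL24, a cytokine of the IL-10 family, was at 23.3, 2.29 and 2.43 CPM in controls 1, 2 and 3 and at 28.3, 1.92 and 2.14 CPM in HT 1, 2 and 3. NDRG1, a hypoxia-responsive gene, was at 282, 121 and 127 CPM in the controls and 224, 130 and 133 CPM after heating. LDHA, lactate dehydrogenase A, was at 1310, 742 and 758 CPM in the controls and 1250, 751 and 714 CPM after heating. Each of these genes was high in replicate 1 of both groups, and the heated and unheated libraries overlapped. HT 1 also held 1907 genes with a count in none of the other 17 of the 18 libraries used, with 2756 counts in all and at most 7 per gene. Without HT 1, 964 genes were altered in place of 789, and without replicate 1 of both groups, an alternative chosen after seeing the data, 1056. Printed counts of a gene list that changed their altered calls or moved by over 1.5 times without HT 1 are given both ways.

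Heating raised several chaperone transcripts and most immediate early ones strongly and lowered many other genes, most of them by small amounts. HSPA6, the strictly inducible HSP70 chaperone, rose from 0.471 ± 0.14 CPM (SD, n = 3) to 4740 ± 655 CPM (SD, n = 3), and FOS, a subunit of the transcription factor AP-1, from 18.3 ± 1.72 CPM (SD, n = 3) to 1820 ± 95.5 CPM (SD, n = 3). CCDC71, a gene of little known function, had the largest fall among the genes that the selection rule took, and ID1, an inhibitor of DNA binding downstream of BMP signals, fell from 192 ± 18 CPM (SD, n = 3) to 51.0 ± 10.9 CPM (SD, n = 3). Over the 5 chaperone lists described below, 15 of 83 genes were altered upward, with a median of 0.10, and of 37 immediate early genes 27 were, with a median of 2.31. In the unheated spheroids HSPA6, HSPA7, HSPA1A, HSPA1B and DNAJB1 together made up 535, 403 and 505 CPM, and in the heated ones 18420, 20780 and 23480 CPM. These 5 genes thus took up a share of the counts in every HT library that no control library came near. These are bulk libraries, so fewer cells of a type and less RNA per cell cannot be told apart.

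Of 15879 genes tested, 789 (4.97%) were altered, 682 of them upward (4.29%) and 107 downward (0.674%). By the adjusted p alone the balance turned, with 1262 genes that rose (7.95%) and 1539 that fell (9.69%), 2801 in all (17.6%). Once the fit held a block for the replicate number, 5189 genes passed, 2479 upward and 2710 downward. Which direction held more genes depended on the setting, with 777 that rose and 676 that fell without control 3, 940 and 865 without HT 2, and 1947 and 1944 without a count filter. The count of 2801 depended on single libraries, with 1724 genes without control 2, 1453 without control 3, 1805 without HT 2 and 1688 without HT 3, and it was 4651 without replicate 1 of both groups. Scaling by library size only gave 3385 genes of which 29.6% rose, in place of 45.1%, and gave 768 altered genes. The altered count itself was 1382 without a count filter, 463 with at least 10 counts in every library and 271 when tested against a 2-fold change. Among the genes that fell, 893 (58.0%) did so by a log2 fold change of 0.5 or less, 539 (35.0%) by 0.5 to 1, and 5 by more than 2, with a median size of 0.45. Among the genes that rose, 309 (24.5%) did so by 0.5 or less, 228 by 2 to 4 and 94 by more than 4, with a median size of 1.09. The rises thus included many large ones, and the falls were mostly shallow. The groups did not overlap for all of the genes altered upward and for 106 of the 107 altered downward, against 5725 (36.1%) of all genes tested.

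**Figure D1:**
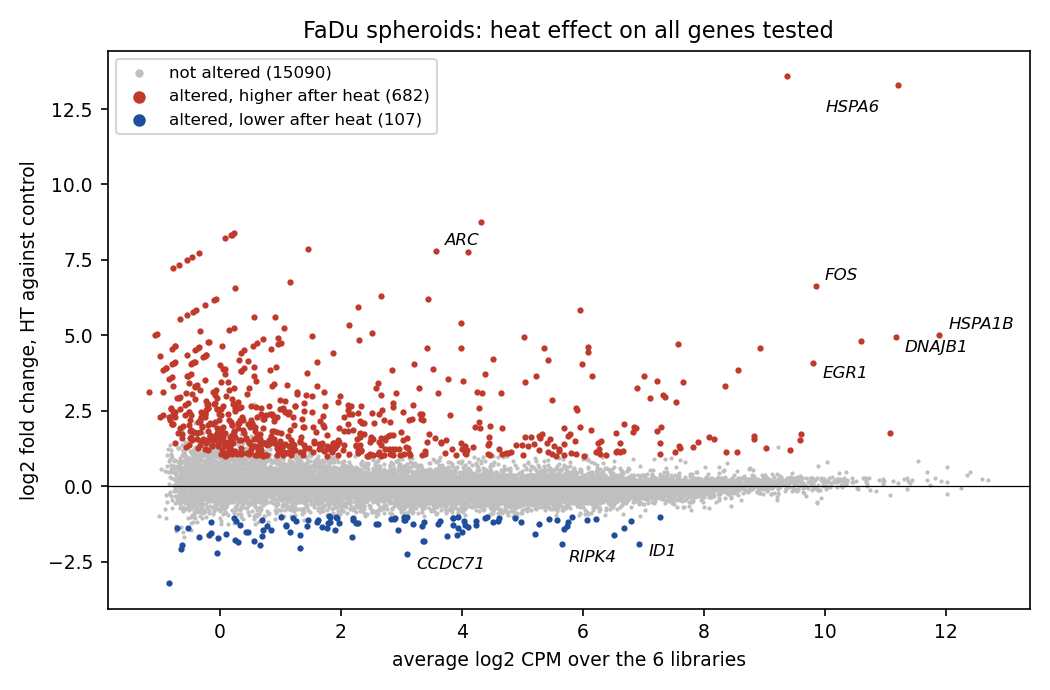
Log2 fold change of FaDu HT against control for each of the 15879 genes tested, plotted against the average log2 CPM, with altered genes in colour. Named points are members of the stress response lists and genes that fell.

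The altered genes differed from the rest in gene type and in exon number. Protein-coding genes were 372 of the 682 genes altered upward (54.5%) and 76 of the 107 altered downward (71.0%), against 83.3% of all genes tested. Antisense transcripts were altered upward in 121 of 846 cases (14.3%) and downward in 3, and long intergenic RNAs in 45 of 604 (7.45%) and 13 (2.15%), while protein-coding genes were altered upward in 2.81% and downward in 0.574% of 13234 cases. Antisense genes and pseudogenes share sequence with other genes and the strand used for counting is not given in the sources used here, so the gene that their reads came from is uncertain. Among protein-coding genes with a single exon in every GENCODE transcript, 36 of 233 (15.5%) were altered upward and 6 (2.58%) downward. The upward share was 12.3% with 2 exons, 8.59% with 3, 2.69% with 4 to 10, 1.38% with 11 to 20, and 0.625% with more than 20. The downward share was 2.31%, 1.72%, 0.589%, 0.295% and 0.104% in the same order. In both directions the share of altered genes was lower in each class with more exons. By the adjusted p alone the falls did not follow that order throughout, with 31 of 233, 63 of 432, 92 of 640, 692 of 5940, 443 of 4068 and 158 of 1921 genes from 1 exon to more than 20. The median level, at 3.89, 3.31, 3.83, 4.65, 5.05 and 5.35 log2 CPM, also differed between these classes.

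The HSP70 and HSP110 chaperones, which bind exposed hydrophobic stretches of unfolded proteins, rose most in their inducible members. Of 14 members tested, 6 were altered upward and none downward, and 8 rose and none fell by the adjusted p (8 and 1 with the replicate block), with a median log2 fold change of 0.71 against 0.01 for all genes. HSPA6 was at 0.558, 0.546 and 0.309 CPM in the controls and at 4190, 4560 and 5460 CPM in the HT libraries. Barely a trace was counted in any control, and every HT library held a high level. The log2 fold change of HSPA6 was 13.31 (SE 0.20, adjusted p = 2.4e-09). HSPA7, annotated as a pseudogene next to HSPA6 with nearly the same sequence, had 0.0558, 0.164 and 0.0883 CPM in the controls and 1280, 1320 and 1410 CPM after heating. Reads of this pair may have been assigned to either gene, and the same holds for HSPA1A and HSPA1B, which encode nearly identical proteins. HSPA1A, the main stress-inducible HSP70, was at 122, 84.6 and 115 CPM in the controls and 2650, 3030 and 3320 CPM in the HT libraries, and HSPA1B at 259, 187 and 244 CPM and 6500, 7400 and 8200 CPM. Control 2 was the lowest and HT 3 the highest library for both. Their log2 fold changes were 4.80 (SE 0.16, adjusted p = 4.5e-07) and 5.0 (SE 0.15, adjusted p = 2.6e-07). HSPA1L, the third gene of that cluster and otherwise mainly a testis gene, reached 33.7, 42.9 and 53.2 CPM from 2.96, 1.47 and 2.56 CPM (log2 fold change 4.21, SE 0.24). HSPH1, the HSP110 that exchanges nucleotides on HSP70, went from 262, 186 and 236 CPM to 550, 546 and 928 CPM (log2 fold change 1.57, SE 0.21, adjusted p = 0.0016). HT 3 was far above the other HT libraries for HSPH1, and the groups did not overlap.

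The constitutive HSP70 members moved less or stayed within the spread. HSPA8, the cognate HSP70 that also uncoats clathrin vesicles, rose from 2120 ± 252 CPM (SD, n = 3) to 3790 ± 409 CPM (SD, n = 3), or by 0.84 in log2 units (SE 0.11, adjusted p = 0.0013). HSPA2, best known from spermatogenesis, rose by 0.58 (SE 0.08, adjusted p = 0.002). HSPA9, the mitochondrial HSP70, had a log2 fold change of 0.01 (SE 0.06), and HSPA4, a further HSP110, one of -0.09 (SE 0.07, adjusted p = 0.42), with overlapping groups for both. HSPA13, a microsomal member, had a log2 fold change of -0.38 (SE 0.15) with an adjusted p of 0.11, and of 0.024 with the replicate block.

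The promoters of some of these genes hold the heat shock element in a strict form. It was searched on both strands in the 250 bases before the start, as 3 units of GAA or its complement TTC that alternate and are set apart by 2 bases of any kind. Of 35116 promoters in the reference set, 155 (0.441%) held a match, as did 48 of the 15968 of genes tested (0.301%), 5 of 391 (1.28%) of genes altered upward and none of 93 of genes altered downward. Among 100 promoters of the 5 chaperone lists described here, 7 held one, those of HSPA6, HSPA8, HSPD1, HSP90AA1, HSP90AB1, CHORDC1 and DNAJB6. The strict form was not found in the promoters of HSPA1A, HSPA1B and DNAJB1, and imperfect forms were not searched. A match is a description of sequence and no evidence of binding. Shown are the promoters of the 4 genes with the largest rises among these 7, with capitals marking the matched bases. They were read 5′ to 3′ on the strand of the gene from RefSeq starts on GRCh38.p14, and lie at chr1:161524290-161524539 (plus strand, HSPA6), chr11:123062137-123062386 (minus strand, HSPA8), chr2:197499841-197500090 (minus strand, HSPD1) and chr14:102087045-102087294 (minus strand, HSP90AA1), each directly before the first exon by RefSeq. These 4 starts are also transcript starts in GENCODE v29, and other starts are annotated there for each gene but HSPA6.
HSPA6: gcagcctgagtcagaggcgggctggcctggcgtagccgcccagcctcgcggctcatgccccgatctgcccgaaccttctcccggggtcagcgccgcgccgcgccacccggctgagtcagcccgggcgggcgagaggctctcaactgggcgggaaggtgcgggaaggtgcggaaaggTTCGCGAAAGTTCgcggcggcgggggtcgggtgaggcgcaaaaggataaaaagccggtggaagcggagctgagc
HSPA8: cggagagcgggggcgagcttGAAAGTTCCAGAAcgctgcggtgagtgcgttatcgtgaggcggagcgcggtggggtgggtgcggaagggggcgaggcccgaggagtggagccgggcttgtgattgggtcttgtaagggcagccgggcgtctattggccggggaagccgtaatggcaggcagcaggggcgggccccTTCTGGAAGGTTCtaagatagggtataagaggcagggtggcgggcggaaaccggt
HSPD1: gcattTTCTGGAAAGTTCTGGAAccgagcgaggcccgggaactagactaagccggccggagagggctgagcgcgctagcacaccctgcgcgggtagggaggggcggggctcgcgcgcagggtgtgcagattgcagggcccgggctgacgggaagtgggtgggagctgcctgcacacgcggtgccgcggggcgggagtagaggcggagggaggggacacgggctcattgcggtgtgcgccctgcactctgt
HSP90AA1: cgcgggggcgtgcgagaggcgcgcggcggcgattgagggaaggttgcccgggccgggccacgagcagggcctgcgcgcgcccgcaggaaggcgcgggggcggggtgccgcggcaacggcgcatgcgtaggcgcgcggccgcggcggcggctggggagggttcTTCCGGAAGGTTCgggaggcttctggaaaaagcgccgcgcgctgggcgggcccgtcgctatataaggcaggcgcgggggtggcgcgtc
The element of HSPA6 begins 74 bases and that of HSP90AA1 88 bases before the start. HSPA8 holds 2 matches, the first 230 bases before the start, and HSPD1 2 overlapping matches that begin 245 bases before it. The largest and the smallest rise of these 4 genes, 13.31 for HSPA6 and 0.65 for HSP90AA1, stood behind promoters with 1 match each.

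The HSP40 proteins, J-domain partners that deliver substrates to HSP70, split into a few strong risers and a majority with little change. Of 33 members tested, 4 were altered upward and none downward, with a median of -0.01. By the adjusted p 5 rose and 4 fell (8 and 6 with the replicate block, 5 and 6 with library size only). DNAJB1, the partner of inducible HSP70, was at 153, 131 and 146 CPM in the controls and 3800, 4470 and 5090 CPM after heating. The HT libraries lay far above every control and increased from replicate 1 to 3. Its log2 fold change was 4.96 (SE 0.13, adjusted p = 1.0e-07). DNAJA4 went from 12.1, 8.84 and 10.7 CPM to 79.9, 107 and 208 CPM, a log2 fold change of 3.64 (SE 0.34), and DNAJB4 from 37.7, 31.7 and 36.5 CPM to 193, 302 and 367 CPM, one of 3.03 (SE 0.21). For both cytosolic co-chaperones HT 1 held the least and HT 3 the most of the heated libraries. DNAJA1, a partner of HSPA8, rose from 233 ± 29.9 CPM (SD, n = 3) to 516 ± 79.9 CPM (SD, n = 3). DNAJC14, which takes part in receptor export from the endoplasmic reticulum, fell by 0.54 (SE 0.08, adjusted p = 0.0032), and DNAJC5, a synaptic vesicle co-chaperone, by 0.42 (SE 0.06, adjusted p = 0.002).

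The small heat shock proteins, which hold unfolded proteins without using ATP, had 6 of 10 members above the count filter and no count for HSPB3 and CRYAA. Of the 6 tested, 3 were altered upward (4 with the replicate block) and none downward, with a median of 1.43. HSPB1, the gene of HSP27, was at 334, 421 and 421 CPM in the controls and 1170, 1010 and 1240 CPM after heating. Every heated library lay well above every control. The log2 fold change of HSPB1 was 1.53 (SE 0.11, adjusted p = 6.7e-05). HSPB8, the partner of BAG3 in selective autophagy, was at 1.0, 2.35 and 2.60 CPM and 6.98, 14.4 and 16.2 CPM (log2 fold change 2.64, SE 0.39, adjusted p = 0.0023). CRYAB, alpha B-crystallin, was at 1.79, 2.73 and 2.47 CPM and 10.0, 10.7 and 11.5 CPM (log2 fold change 2.20, SE 0.18, adjusted p = 0.00013). Replicate 1 was the lowest library of its group for both genes, and the groups did not overlap.

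HSP90 and its co-chaperones, which mature kinases and steroid receptors, rose in 4 and fell in 1 of 20 members by the adjusted p (8 and 1 with the replicate block), with 2 altered upward, none downward, and a median of 0.12. BAG3, which exchanges nucleotides on HSP70 and routes its substrates to autophagy, was at 155, 138 and 140 CPM in the controls and 297, 398 and 590 CPM after heating. The heated libraries climbed from HT 1 to HT 3 and all lay above the controls. BAG3 had a log2 fold change of 1.57 (SE 0.21, adjusted p = 0.0015). FKBP4, an immunophilin of the steroid receptor complex, went from 306 ± 19.3 CPM (SD, n = 3) to 742 ± 85.2 CPM (SD, n = 3) and rose by 1.28 (SE 0.09, adjusted p = 7.1e-05). HSP90AA1, the inducible cytosolic HSP90, was at 3500, 2980 and 3170 CPM and 5000, 4660 and 5470 CPM, a rise of 0.65 (SE 0.09, adjusted p = 0.0016), and HSP90AB1, the constitutive one, rose by 0.47 (SE 0.08, adjusted p = 0.0059). Of 10 chaperonin genes, whose rings enclose folding proteins, none was altered and 3 rose. Their median was 0.07 (-0.01 with library size only, 0.03 without HT 1). TCP1, a subunit of the cytosolic ring, rose by 0.62 (SE 0.09, adjusted p = 0.002) and HSPD1, the mitochondrial HSP60, by 0.66 (SE 0.10, adjusted p = 0.0028), while the other cytosolic subunits CCT2 to CCT8 had log2 fold changes from -0.04 to 0.10 and none passed. Summed over these 5 chaperone lists, the controls held 21845, 19251 and 20295 CPM and the heated libraries 46882, 47194 and 53129 CPM.

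The heat shock factor genes and their regulator HSBP1 had log2 fold changes between -0.36 and 0.17. Of 4 members tested none passed the adjusted p (1 rose and 1 fell with the replicate block), with a median of 0.16 (-0.03 without HT 1). HSF1 was at 62.0, 59.4 and 55.3 CPM in the controls and 75.1, 61.2 and 60.6 CPM after heating, and HSF2, a factor that forms trimers with HSF1, had a log2 fold change of -0.36 (SE 0.11) with an adjusted p of 0.051, and of 0.0091 with the block. HSF1 lay highest in HT 1, and its groups overlapped.

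UBB, which supplies the ubiquitin tag for protein degradation, rose. UBB was at 445, 413 and 402 CPM in the controls and 960, 938 and 983 CPM in the HT libraries. The libraries of each group lay close together, and the log2 fold change was 1.19 (SE 0.07, adjusted p = 1.1e-05). ZFAND2A, a zinc finger protein that associates with the proteasome under proteotoxic stress, went from 4.35, 4.26 and 4.90 CPM to 75.4, 66.6 and 104 CPM (log2 fold change 4.18, SE 0.18, adjusted p = 2.6e-06). Among 31 subunits of the proteasome, which degrades the tagged proteins, none was altered, none rose and 2 fell (5 rose and 3 fell with the replicate block), with a median of 0.04 (-0.04 with library size only, -0.01 without HT 1). PSMD12, a subunit of the regulatory lid, fell by 0.43 (SE 0.06, adjusted p = 0.0014).

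**Figure D2:**
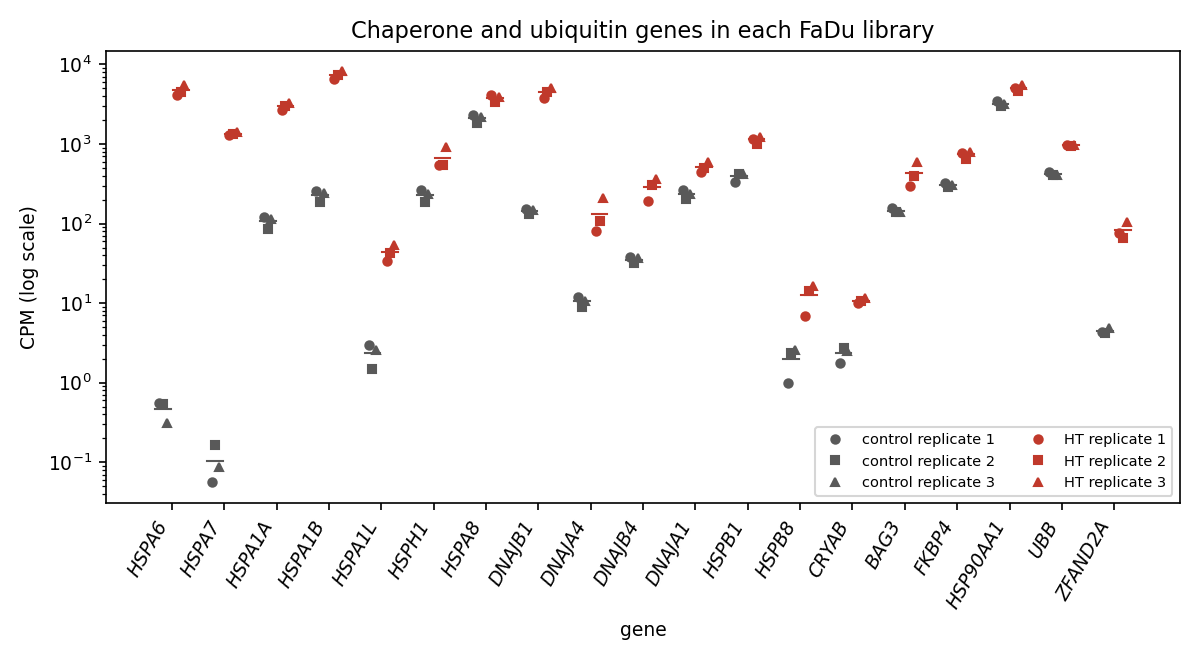
CPM of chaperone and ubiquitin genes in each FaDu library on a log scale, with control in grey, HT in red, circles, squares and triangles for replicates 1, 2 and 3, and a line at the mean. HT replicates of DNAJA4, BAG3 and HSPH1 spread more widely than those of UBB.

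In the integrated stress response, in which phosphorylation of eIF2 alpha slows translation and favours stress factors, several effectors rose. Of 20 members, 3 were altered upward, none downward, 7 rose and 1 fell (8 and 6 with the replicate block, 7 and 3 with library size only, 7 and 2 without HT 1), with a median of 0.04 (-0.04 with library size only, 0.00 without HT 1). The median was 0.17 for the 16 effectors and targets and -0.16 for the 4 kinases, none of which passed (2 fell with the block). ATF3, a stress-induced repressor, was at 3.68, 3.38 and 2.87 CPM in the controls and 54.6, 79.1 and 104 CPM after heating. PPP1R15A (GADD34), the phosphatase subunit that reverses the eIF2 alpha mark, was at 26.7, 22.2 and 25.0 CPM and 283, 286 and 261 CPM. The heated libraries differed among themselves for ATF3 and hardly at all for PPP1R15A, and neither gene's groups came close. Their log2 fold changes were 4.59 (SE 0.25, adjusted p = 1.1e-05) and 3.49 (SE 0.09, adjusted p = 8.5e-08). CHAC1, a glutathione-degrading target of the pathway, rose from 3.04 ± 0.457 CPM (SD, n = 3) to 6.56 ± 0.700 CPM (SD, n = 3), and PPP1R15B, the constitutive phosphatase subunit, rose by 0.61 (SE 0.10, adjusted p = 0.0036). SLC7A11, the cystine transporter, fell by 0.67 (SE 0.12, adjusted p = 0.006).

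Genes of the unfolded protein response of the endoplasmic reticulum, which senses misfolded proteins in its lumen, fell in part. Of 20 members none was altered, none rose and 4 fell (2 rose and 6 fell with the replicate block). The median was -0.04 (-0.12 with library size only, -0.08 without HT 1). SEL1L, an adaptor of the degradation machinery of that organelle, was at 232, 251 and 264 CPM in the controls and 147, 158 and 157 CPM after heating, and XBP1, the spliced stress factor, at 79.9, 77.2 and 74.2 CPM and 57.8, 54.4 and 47.6 CPM. All heated libraries lay below all controls for both. SEL1L fell by 0.69 (SE 0.07, adjusted p = 0.00038), XBP1 by 0.53 (SE 0.08, adjusted p = 0.0032), and EDEM1, which targets misfolded glycoproteins for degradation, by 0.52 (SE 0.08, adjusted p = 0.0023). HSPA5, the HSP70 of that compartment, was at 829, 702 and 709 CPM and 769, 609 and 620 CPM, a log2 fold change of -0.16 (SE 0.11) with an adjusted p of 0.34, and of 0.0054 with the block.

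Immediate early genes rose nearly throughout. Of 37 members, 27 were altered upward and none downward, and 31 rose and none fell by the adjusted p (35 rose with the replicate block), with a median of 2.31 against 0.01 for all genes. The list summed to 2121, 1917 and 1984 CPM in the controls and 10662, 10926 and 11308 CPM after heating. All 8 genes of the EGR, ARC and NR4A group were altered (median 4.51), 6 of the 7 AP-1 subunits (median 1.76) and 13 of the 22 others (median 1.62). SRF, the factor that drives many of these genes, was the lowest member with a log2 fold change of -0.01 (SE 0.06).

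Among AP-1 subunits, FOS was at 16.8, 17.9 and 20.2 CPM in the controls and 1880, 1880 and 1710 CPM in the HT libraries. JUN was at 71.6, 51.0 and 53.5 CPM and 716, 558 and 498 CPM, and JUND at 41.1, 44.2 and 42.5 CPM and 154, 133 and 146 CPM. HT 1 was the highest heated library for JUN and JUND, while FOS hardly differed between HT 1 and HT 2. The log2 fold changes were 6.64 (SE 0.10, adjusted p = 2.4e-09) for FOS, 3.33 (SE 0.17, adjusted p = 7.6e-06) for JUN and 1.76 (SE 0.07, adjusted p = 2.0e-06) for JUND. FOSB, induced beside FOS, rose by 4.04 (SE 0.27), JUNB, often an antagonist of JUN, by 1.62 (SE 0.09), and FOSL1, abundant in squamous carcinoma cells, by 1.32 (SE 0.16).

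EGR1, a zinc finger factor of growth factor and stress signals, was at 100, 93.6 and 104 CPM in the controls and 1720, 1700 and 1650 CPM after heating. EGR4 was at 1.39, 2.67 and 2.25 CPM and 91.2, 138 and 140 CPM, and ARC, best known from neurons, at 0.167, 0 and 0.132 CPM and 20.8, 21 and 29.6 CPM. The heated libraries were nearly equal for EGR1 and were lowest in HT 1 for EGR4 and ARC. Log2 fold changes were 4.09 (SE 0.07, adjusted p = 7.5e-09) for EGR1, 5.85 (SE 0.24, adjusted p = 1.8e-06) for EGR4 and 7.78 (SE 0.37, adjusted p = 4.5e-06) for ARC. EGR2 rose by 4.6 (SE 0.24) and EGR3 by 4.45 (SE 0.30). NR4A1, an orphan nuclear receptor, went from 39.4 ± 8.71 CPM (SD, n = 3) to 936 ± 183 CPM (SD, n = 3), and its relatives NR4A2 and NR4A3 rose by 3.09 (SE 0.26) and 3.45 (SE 0.43). The other early genes included CYR61, a matrix protein under YAP and SRF control, at 21.5, 18.8 and 17.1 CPM and 226, 236 and 255 CPM (log2 fold change 3.65, SE 0.10), and IER5, itself a target of HSF1, at 54.8, 43.5 and 49.2 CPM and 781, 680 and 669 CPM (3.85, SE 0.11). The heated and unheated libraries of both were clearly apart. CSRNP1, an AXIN-induced nuclear protein, rose by 3.65 (SE 0.21), ZFP36, which destabilizes cytokine mRNAs, by 2.95 (SE 0.12), MAFF, a small partner of CNC factors, by 2.94 (SE 0.24), RHOB, a stress-induced GTPase, by 2.60 (SE 0.09), IER2 by 2.06 (SE 0.12), and MCL1, an anti-apoptotic BCL2 relative, by 1.74 (SE 0.08).

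The CArG box, the binding site of SRF, was found in the promoters of 3 of the 35 immediate early entries, those of EGR1, EGR2 and SRF, against 407 (1.16%) of all 35116 promoters, 175 (1.1%) of those of genes tested, 5 of 391 (1.28%) of genes altered upward and none of 93 of genes altered downward. The cAMP response element (CRE) in its full palindromic form was found in 3 of the 35, those of JUND, MAFF and ZFP36L1, against 578 (1.65%) of all promoters and 378 (2.37%) of genes tested, and in 17 of 391 (4.35%) of genes altered upward and 4 of 93 (4.30%) of genes altered downward. The AP-1 site (TGANTCA, where N is any base) was found in none of the 35, in 2308 (6.57%) of all promoters, in 759 (4.75%) of genes tested, in 31 (7.93%) of genes altered upward and in 4 (4.3%) of genes altered downward. The promoters of EGR1 and EGR2 are shown because these genes rose and hold the box, with capitals marking the boxes. These promoters lie at chr5:138465229-138465478 (plus strand) and chr10:62816367-62816616 (minus strand) of GRCh38.p14 by RefSeq starts. They are given 5′ to 3′ on the strand of the gene and lie directly before the first exon by RefSeq. The start of EGR2 is also one in GENCODE v29, while that of EGR1 lies 11 bases from the nearest start there.
EGR1: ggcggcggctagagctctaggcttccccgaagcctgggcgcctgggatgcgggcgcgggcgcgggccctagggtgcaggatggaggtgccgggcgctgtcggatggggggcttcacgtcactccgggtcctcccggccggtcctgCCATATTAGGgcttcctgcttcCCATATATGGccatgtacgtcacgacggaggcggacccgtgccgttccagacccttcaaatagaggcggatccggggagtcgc
EGR2: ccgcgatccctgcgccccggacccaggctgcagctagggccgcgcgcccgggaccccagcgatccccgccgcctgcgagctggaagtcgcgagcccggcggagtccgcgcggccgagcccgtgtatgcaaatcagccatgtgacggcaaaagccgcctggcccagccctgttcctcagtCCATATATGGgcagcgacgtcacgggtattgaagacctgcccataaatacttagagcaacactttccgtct
EGR1 holds 2 boxes, the first 105 bases before the start, and EGR2 holds 1 that begins 71 bases before it. EGR1 and EGR2 had log2 fold changes of 4.09 and 4.6, and SRF, whose own promoter also holds a box, one of -0.01.

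Feedback inhibitors of MAP kinases rose in part. Of 15 members, 5 were altered upward (4 without HT 1), none downward, and 6 rose and 2 fell (7 and 3 with the replicate block), with a median of -0.08 (0.04 without HT 1). DUSP1, a nuclear phosphatase of stress-activated kinases, was at 12.6, 12.8 and 15.9 CPM in the controls and 324, 375 and 404 CPM after heating, and DUSP2 at 2.18, 2.24 and 1.77 CPM and 49.0, 77.8 and 63.5 CPM. Every heated library lay far above the controls. DUSP1 rose by 4.73 (SE 0.13, adjusted p = 1.0e-07), DUSP2 by 4.95 (SE 0.20, adjusted p = 1.8e-06), DUSP8 by 2.41 (SE 0.36, adjusted p = 0.0027) and DUSP5, a nuclear ERK phosphatase, by 1.96 (SE 0.14, adjusted p = 5.2e-05). SPRY2, an inhibitor of receptor tyrosine kinase signals, rose by 0.93 (SE 0.15, adjusted p = 0.0036) and its relative SPRED1 fell by 0.61 (SE 0.10, adjusted p = 0.0039).

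**Figure D3:**
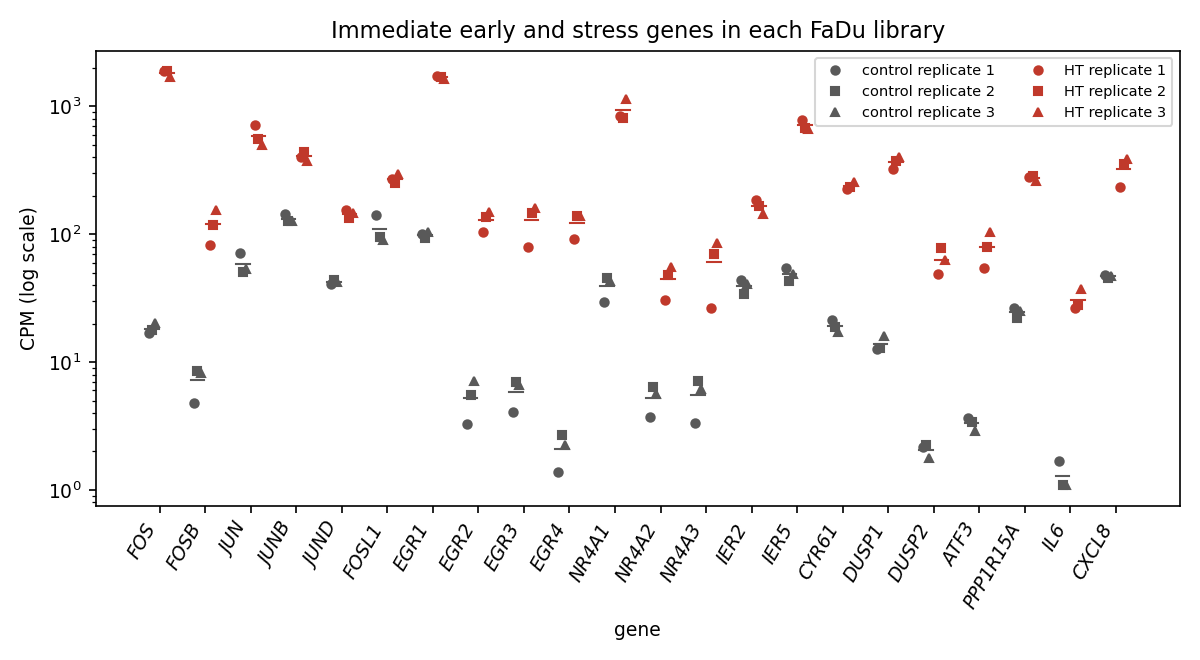
CPM of immediate early, stress and cytokine genes in each FaDu library on a log scale, with control in grey, HT in red, circles, squares and triangles for replicates 1, 2 and 3, and a line at the mean. The groups of every gene shown are apart.

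In the NF-kappaB list 2 of 13 genes were altered upward (3 without HT 1), none downward, and 5 rose (6 with the replicate block). The median of the list was 0.18 (0.1 with library size only, 0.33 without HT 1). Of its 5 subunits only NFKB2 rose, by 0.48 (SE 0.09, adjusted p = 0.0089). NFKBIZ, an atypical inhibitor that acts in the nucleus, was at 21.6, 24.8 and 21.8 CPM in the controls and 61.9, 52.6 and 71.1 CPM after heating, a log2 fold change of 1.44 (SE 0.12, adjusted p = 0.00012). ZC3H12A, a ribonuclease that degrades cytokine mRNAs, was at 23.0, 27.5 and 25.5 CPM and 96.5, 84.3 and 114 CPM, one of 1.95 (SE 0.12, adjusted p = 2.1e-05). The groups of these feedback genes were apart, with HT 2 the lowest heated library.

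Of 20 cytokine and growth factor genes tested, 11 were altered upward (10 with library size only and without HT 1), none downward, and 11 rose and 1 fell (13 and 2 with the replicate block), with a median of 1.10. Chemokines made up 5 of them, out of 6, with a median of 2.02. CXCL8, a neutrophil attractant, was at 48.3, 45.2 and 47.0 CPM in the controls and 236, 356 and 387 CPM after heating, and IL6 at 1.67, 1.09 and 1.10 CPM and 26.7, 27.8 and 37.1 CPM. HT 1 was the lowest heated library for both, and still far above the controls. CXCL8 rose by 2.80 (SE 0.17, adjusted p = 1.9e-05) and IL6 by 4.57 (SE 0.21, adjusted p = 3.3e-06). CCL26, an eosinophil attractant, rose by 3.95 (SE 0.37), CCL20, which attracts cells with the receptor CCR6, by 2.44 (SE 0.26), and CXCL3 by 1.60 (SE 0.25). IL11, a cytokine of the IL-6 family, rose by 2.45 (SE 0.49, adjusted p = 0.0098). PTGS2, the inducible cyclooxygenase, rose by 1.37 (SE 0.16, adjusted p = 0.00087).

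In the BMP pathway 4 of 12 members were altered upward and 1 downward (6 rose and 2 fell by the adjusted p with the replicate block, 4 and 1 without it), with a median of 0.35. ID1 was at 212, 178 and 185 CPM in the controls and 63.1, 48.0 and 41.9 CPM after heating. ID2, a related inhibitor of basic helix-loop-helix factors, was at 0.335, 0.164 and 0.221 CPM and 3.74, 1.58 and 2.89 CPM. These relatives thus moved in opposite directions without overlap of the groups. ID1 fell by 1.91 (SE 0.14, adjusted p = 7.1e-05) and ID2 rose by 3.48 (SE 0.45, adjusted p = 0.0013). BMP4, a ligand, rose by 2.04 (SE 0.39, adjusted p = 0.008), BAMBI, a decoy receptor, by 2.03 (SE 0.27, adjusted p = 0.0015), and SMAD7, an inhibitory SMAD, by 1.36 (SE 0.18, adjusted p = 0.0014).

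In the Notch pathway 3 of 15 members were altered upward and 1 downward, and 3 rose and 2 fell (5 and 4 with the replicate block), with a median of -0.03 (0.14 without HT 1). NRARP, a target that dampens Notch signals, was at 100, 136 and 142 CPM in the controls and 267, 386 and 398 CPM after heating, and HES1, a target and repressor, at 55.6, 61.2 and 69.7 CPM and 112, 158 and 149 CPM. Replicate 1 was the lowest of each group for both targets. NRARP rose by 1.47 (SE 0.17, adjusted p = 0.0008) and HES1 by 1.17 (SE 0.13, adjusted p = 0.0007). LFNG, the glycosyltransferase that tunes Notch receptors, went from 11.5, 17.6 and 18.4 CPM to 4.99, 4.96 and 3.70 CPM, and fell by 1.80 (SE 0.21, adjusted p = 0.0008).

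Falls beyond 2-fold were found in 107 genes, with a median log2 fold change of -1.25, and the protein-coding ones among the lowest belonged to varied pathways. CCDC71 was at 13.2, 15.3 and 12.9 CPM in the controls and 3.74, 2.93 and 2.08 CPM after heating. RIPK4, a kinase of epidermal differentiation, was at 61.9, 92.4 and 84.8 CPM and 20.1, 21.9 and 21.2 CPM. PPP1R10, a nuclear targeting subunit of protein phosphatase 1, was at 139, 135 and 136 CPM and 52.8, 37.9 and 44.3 CPM. In each case the lowest control held more than the highest heated library, and the heated libraries of RIPK4 were nearly equal. CCDC71 fell by 2.24 (SE 0.20, adjusted p = 0.00021), RIPK4 by 1.92 (SE 0.14, adjusted p = 7.1e-05) and PPP1R10 by 1.60 (SE 0.11, adjusted p = 4.2e-05). TADA1, a subunit of the SAGA coactivator, fell from 20.3, 20.1 and 20.5 CPM to 6.73, 6.76 and 5.72 CPM (log2 fold change -1.66, SE 0.11). WNT9A, a WNT ligand, fell by 1.60 (SE 0.12), GEMIN4, a part of the SMN complex that assembles spliceosomal particles, by 1.57 (SE 0.12), and DDX28, a mitochondrial RNA helicase, by 1.53 (SE 0.13). NHLRC1, the ubiquitin ligase malin, fell by 1.68 (SE 0.20), and BCDIN3D, an RNA methyltransferase, by 1.45 (SE 0.21).

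Measured in CPM, the losses came from abundant epithelial and signalling genes with smaller folds. CCND1, cyclin D1, was at 696, 650 and 698 CPM in the controls and 516, 486 and 493 CPM after heating. The groups did not overlap, and CCND1 fell by 0.45 (SE 0.06, adjusted p = 0.0019). IFIT1, an interferon-induced antiviral gene, fell by 0.65 (SE 0.11, adjusted p = 0.0042), KLF5, a factor of proliferating epithelia, by 0.71 (SE 0.07, adjusted p = 0.0004), ZNFX1, an RNA sensor, by 0.70 (SE 0.06, adjusted p = 0.00019), and MAT2A, which makes S-adenosylmethionine, by 0.78 (SE 0.09, adjusted p = 0.00064). Among the largest gains in CPM were those of HSPA1B, HSPA6, DNAJB1, HSPA1A, HSP90AA1, FOS, ACTG1, HSPA8 and EGR1. Of these ACTG1, cytoplasmic gamma actin, belonged to none of the stress lists and rose from 4540 ± 214 CPM (SD, n = 3) to 6290 ± 235 CPM (SD, n = 3).

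**Figure D4:**
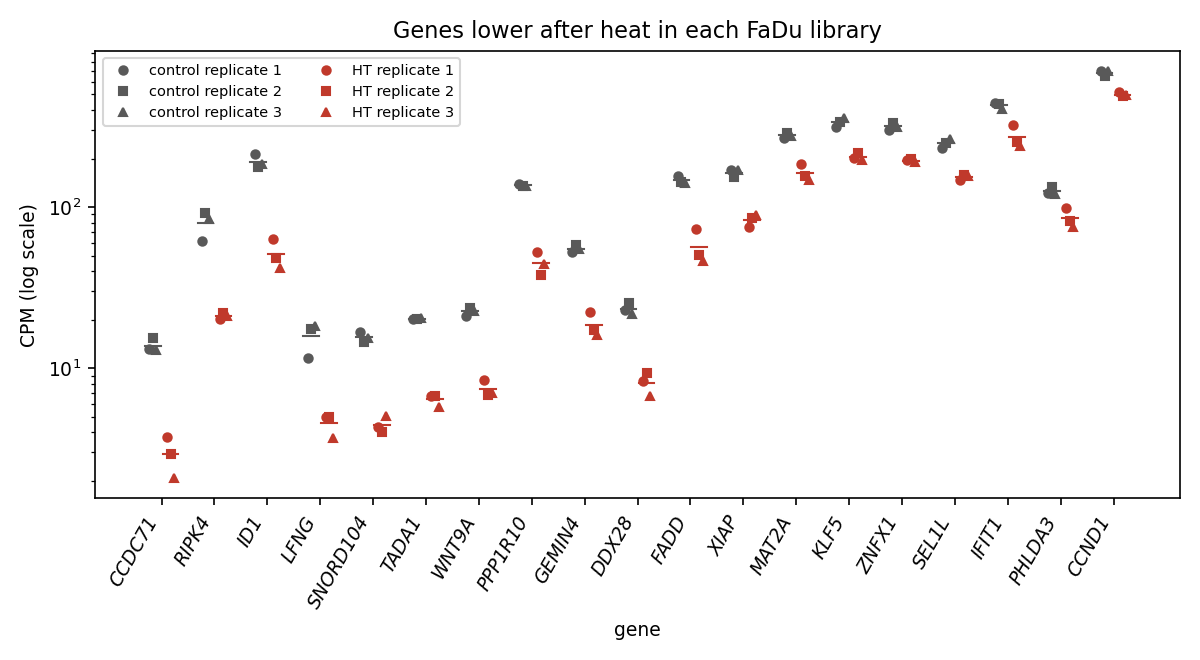
CPM of genes that fell in each FaDu library on a log scale, with control in grey, HT in red, circles, squares and triangles for replicates 1, 2 and 3, and a line at the mean. The fall of CCND1, an abundant gene, was smaller on this scale than those of CCDC71 or RIPK4.

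Zinc finger genes and solute carriers fell more often than they rose, as did all genes tested (9.69% against 7.95%). Of 391 zinc finger genes tested, named ZNF with a number and mostly coding for DNA-binding repressors, 22 rose and 90 fell by the adjusted p (38 and 120 with the replicate block), and 3 were altered upward and 12 downward (16 downward with library size only, 14 with the block and 14 without HT 1), with a median of -0.14. ZNF703, a repressor of the NET family, was the highest member, at 0.949, 0.655 and 0.706 CPM in the controls and 3.99, 4.90 and 4.33 CPM after heating (log2 fold change 2.51, SE 0.24, adjusted p = 0.00029). ZNF572 fell by 1.45 (SE 0.15, adjusted p = 0.00042). Of 234 solute carriers 10 rose and 32 fell (22 and 60 with the replicate block), 5 were altered upward and none downward (2 downward with library size only and without HT 1), with a median of -0.11. With library size only, 8 solute carriers rose and 54 fell, and 12 zinc finger genes rose and 113 fell. SLC17A5, the lysosomal sialic acid exporter, was at 14.6, 12.4 and 13.6 CPM and 7.35, 7.32 and 6.07 CPM and fell by 0.97 (SE 0.13, adjusted p = 0.0017).

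Altered genes of the forkhead and HOX families were all altered upward, while other members fell. Of 31 forkhead genes 6 were altered upward (7 without HT 1) and none downward, 8 rose and 3 fell (11 and 7 with the replicate block), with a median of 0.15 (0.3 without HT 1), and FOXC2, a factor of mesenchymal and lymphatic development, was at 1.73, 0.764 and 0.397 CPM in the controls and 17.2, 10.6 and 12.8 CPM after heating (log2 fold change 3.85, SE 0.40, adjusted p = 0.00042). Of 32 HOX genes 4 were altered upward (3 with library size only and without HT 1, 5 with the block), none downward, 5 rose and 5 fell (7 and 7 with the block), with a median of 0.20 (0.01 without HT 1). HOXD1, at 0.112, 0.109 and 0.0441 CPM and 2.06, 0.620 and 0.982 CPM, was the highest (3.72, SE 0.66, adjusted p = 0.0061). Both rested on low counts in the controls, and HT 1 held the most of each.

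Genes of growth arrest and cell death moved in both directions. CDKN1A, the cell cycle inhibitor p21, rose by 0.37 (SE 0.07, adjusted p = 0.0062) and GDF15, a stress cytokine, by 0.52 (SE 0.10, adjusted p = 0.0076), while PHLDA3, an inhibitor of AKT, fell by 0.55 (SE 0.10, adjusted p = 0.0065). PMAIP1 (NOXA), a pro-apoptotic BH3 protein, rose by 1.08 (SE 0.14), and by 0.98 without control 2 and 0.99 without HT 1, which ended its altered call. With library size only that call ended as well.

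In the list of apoptosis regulators more genes fell than rose. Of 16 tested, none was altered upward and 1 downward (2 with library size only), and 1 rose and 6 fell (2 and 7 with the replicate block), with a median of -0.17. BCL2 had the highest log2 fold change of the list, 0.66. MCL1 and PMAIP1, whose rises are given above, also regulate apoptosis but were counted in other lists. XIAP, an inhibitor of caspases, was at 169, 153 and 169 CPM in the controls and 75.0, 85.1 and 88.9 CPM after heating. FADD, the adaptor of death receptors, was at 157, 144 and 141 CPM and 72.9, 50.5 and 46.6 CPM. Genes that block and genes that pass on the death signal thus both fell, with no overlap between the groups. FADD fell by 1.38 (SE 0.15, adjusted p = 0.00056), XIAP by 0.98 (SE 0.08, adjusted p = 0.00012), CASP8, the initiator caspase that FADD recruits, by 0.59 (SE 0.08, adjusted p = 0.0021), and BCL2L11 (BIM), a BH3 activator of cell death, by 0.47 (SE 0.08, adjusted p = 0.0044).

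Other lists of the damage and growth response held at most 2 altered genes each. Of 26 DNA repair genes none passed the adjusted p (4 rose and 1 fell with the replicate block, 1 fell with library size only, 2 rose without HT 1). Their median was 0.02 (-0.06 with library size only). BRCA1 was at 84.1, 84.9 and 84.2 CPM in the controls and 76.7, 82.9 and 89.3 CPM after heating. Of 26 cell cycle genes none was altered upward and 1 downward, and none rose and 4 fell (11 fell with the block, 10 with library size only, 8 without HT 1). Their median was -0.08 (-0.16 with library size only, -0.17 without HT 1). The altered one was CDC25A, the phosphatase that opens S phase, which fell by 1.05 (SE 0.15), and by 0.99 without control 1, 0.92 without HT 2 and 1.0 without HT 3, which ended its altered call. Of 19 splicing factors 2 were altered upward, none downward, 4 rose and 2 fell (10 and 3 with the block, 2 and 3 with library size only). Their median was 0.16 (0.07 with library size only). CCNL1, a cyclin of splicing kinases, was at 82.9, 79.2 and 87.1 CPM and 218, 196 and 265 CPM and rose by 1.45 (SE 0.11, adjusted p = 7.4e-05), while SRSF1, a splicing activator, fell by 0.52 (SE 0.08, adjusted p = 0.0035). Of 13 hypoxia and glycolysis genes 1 was altered upward and none downward (1 downward without HT 1; 2 rose and 2 fell with the block, 1 and 3 without HT 1), with a median of 0.00 (-0.27 without HT 1). That gene was ANKRD37, at 1.23, 0.491 and 0.927 CPM and 4.49, 4.17 and 5.89 CPM (2.45, SE 0.31, adjusted p = 0.0012), and replicate 1 of both groups was high in most others of this list, such as LDHA and NDRG1. Of 12 genes of the oxidative stress list none was altered and 1 fell (3 rose and 4 fell with the block, 4 fell with library size only). Their median was 0.07 (-0.01 with library size only, 0.01 without HT 1). HMOX1, heme oxygenase 1, was at 91.8, 64.9 and 69.8 CPM and 98.1, 62.1 and 74.3 CPM, with overlapping groups.

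Transcripts of the translation machinery and of small RNAs changed in the same libraries. Of 75 ribosomal protein genes none was altered, 31 rose and none fell (69 rose with the replicate block, 14 with library size only, 21 without HT 1), with a median of 0.24, and 74 had a positive fold change. They summed to 53900, 51150 and 47810 CPM in the controls and 63590, 59930 and 57520 CPM after heating, and RPL39 was the highest with a rise of 0.42 (SE 0.07, adjusted p = 0.0039). Of 32 transcripts of the mitochondrial genome 4 were altered upward (6 with the block), none downward, and 5 rose and none fell (16 rose with the block, 5 rose and 4 fell without HT 1), with a median of 0.40. They summed to 19520, 26820 and 24000 CPM in the controls and 29470, 21250 and 19300 CPM after heating, so the sums overlapped and only HT 1 lay above every control. MT-TI, a mitochondrial tRNA, was the highest (1.80, SE 0.27, adjusted p = 0.0027). Small nucleolar RNAs, which guide modification of ribosomal RNA and are mostly cut from introns of host genes, had 10 of 25 members altered upward (9 without HT 1) and 1 downward (12 and 2 with the block), with a median of 0.93. SNORA20 was at 0, 0.0546 and 0 CPM and 4.67, 4.28 and 7.51 CPM (7.85, SE 0.59), and SNORD104 at 16.7, 14.6 and 15.4 CPM and 4.30, 4.00 and 5.09 CPM (-1.80, SE 0.14). The former was all but absent in the controls and the latter fell in every heated library. Of 38 histone genes 1 was altered upward and 1 downward (1 and none with RLE scaling, 2 and none without HT 1, 2 and 1 with the block), with a median of -0.03 (0.08 without HT 1), and HIST3H2A, a replication-dependent histone gene by its family, rose by 1.51 (SE 0.09, adjusted p = 2.1e-05).

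Among genes altered upward, 9 had no count in any control and 106 had 1 to 10 counts, and their folds are read as lower bounds or with care. Taking a floor of 3 counts over the control group, CHRNA4, a nicotinic receptor subunit, rose at least 43.0-fold to 2.37, 2.42 and 1.79 CPM, and GIPC3, a hearing-related adaptor, at least 20-fold to 0.997, 0.901 and 1.16 CPM. These bounds cover counting error only. Among genes counted in the controls, C11orf96 was at 0.112, 0.109 and 0.221 CPM and 21, 34.9 and 47.1 CPM (log2 fold change 7.75, SE 0.45), RBFOX3, a neuronal splicing factor, at 0.725, 0 and 0.177 CPM and 24.5, 14.8 and 25.6 CPM (6.19, SE 0.52), and RRAD, a RAS-related GTPase, at 0.781, 0.818 and 0.618 CPM and 31.7, 25.1 and 36.9 CPM (5.4, SE 0.21). Each was near 0 in all controls and clearly counted in all heated libraries.

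Squamous epithelial markers were abundant in both groups, and markers of other cell types were low. The 15 squamous markers summed to 12990, 13450 and 13080 CPM in the controls and 14980, 15290 and 14840 CPM after heating, with KRT17, a basal and tumour keratin, the most abundant. None was altered, 1 rose and 1 fell (7 and 4 with the replicate block, 2 and 2 without HT 1). The median was 0.11 (0.03 with library size only, 0.05 without HT 1). TP63, the master factor of squamous cells, fell by 0.50 (SE 0.08, adjusted p = 0.0045). Fibroblast markers summed to 41.7, 48.3 and 51.9 CPM and 56.8, 55.1 and 72.2 CPM, nearly all of it COL1A1, with LUM at 0. Endothelial markers summed to 8.15, 9.33 and 8.16 CPM and 7.16, 7.71 and 7.05 CPM, led by CDH5, and leukocyte markers to 8.37, 7.41 and 7.54 CPM and 9.78, 6.99 and 8.04 CPM, led by CD14, with CD3E at 0. Of these 3 lists 8 genes passed the count filter and none passed the adjusted p (1 fibroblast marker rose without HT 1), while COL1A1 had one of 0.00094 with the block.

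In FaDu libraries outside the comparison, those of HT + RT against RT, the genes altered by HT alone mostly moved in the same direction. There 857 of 15905 genes (5.39%) were altered, 757 upward (4.76%) and 100 downward (0.629%). Of the 682 genes altered upward by HT alone, 637 were tested there, all with the same sign, and 516 (81.0%) were altered, with medians of 1.84 and 1.87. Of the 107 altered downward, 103 were tested, 102 with the same sign, and 46 (44.7%) were altered, with medians of -1.25 and -1.02. Over all 15546 genes tested in both, 80.1% had the same sign. HSPA6 had log2 fold changes of 13.31 and 13.05 for HT alone and for HT + RT against RT, HSPH1 1.57 and 2.10, and BAG3 1.57 and 2.34. FOS had 6.64 and 4.32, EGR1 4.09 and 1.99, and JUN 3.33 and 1.80. Immediate early genes had a median of 2.31 for HT alone and 1.64 there, with 27 and 24 altered, and the HSP70 and HSP110 list 0.71 and 0.96, with 6 and 7 altered. Differences between these pairs of values were not tested.

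Most immediate early genes rose more in FaDu than in SAS spheroids, while several chaperone genes rose less. In SAS, 904 of 15000 genes (6.03%) were altered by HT, 797 upward (5.31%) and 107 downward (0.713%). Of the genes altered upward in FaDu, 471 were tested in SAS, 414 with the same sign, and 230 (48.8%) were altered there. Of those altered downward, 91 were tested, 77 with the same sign, and 22 (24.2%) were altered there. Over all 13823 genes tested in both spheroid types, 69.9% had the same sign. A test of the difference between the heat effects of the spheroid types, over 17219 genes, called 471 genes (2.74%), 215 with the higher fold change in FaDu (1.25%) and 256 with the lower (1.49%). Of the 37 immediate early genes, 23 were called with the higher fold change in FaDu and none with the lower, with a median difference of 1.43 in log2 units. FOSL2, an AP-1 subunit, differed by -0.66 (adjusted p = 0.0073), short of the cut of 1 for a call. EGR1 had log2 fold changes of 4.09 in FaDu and 0.11 in SAS (difference 4.00, adjusted p = 3.8e-06), CYR61 3.65 and -0.30 (difference 3.98, adjusted p = 9.4e-11) and EGR4 5.85 and -0.44 (difference 6.32, adjusted p = 1.9e-07). Over the 5 chaperone lists 2 genes had the higher and 7 the lower fold change in FaDu. The 2 were HSPA6 and HSPA7, which had few counts in the FaDu controls. HSPH1 rose by 1.57 in FaDu and 2.85 in SAS (difference -1.25, adjusted p = 0.0071), and HSPB8 by 2.64 and 6.07 (difference -3.40, adjusted p = 0.002). CRYAB rose by 2.20 in FaDu. It also rose in SAS, where the controls held no CRYAB count, so the size of that rise and the fitted difference of -7.43 depend on the small count that the fit adds. HSPA4 had -0.09 in FaDu and rose by 1.15 in SAS (difference -1.21, adjusted p = 8.3e-07). ID1 fell by 1.91 in FaDu with a log2 fold change of 0.04 in SAS (difference -1.93, adjusted p = 6.2e-06). The spheroid types differ in cell line, so the line and any other feature that sets the types apart cannot be told apart.

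**Figure D5:**
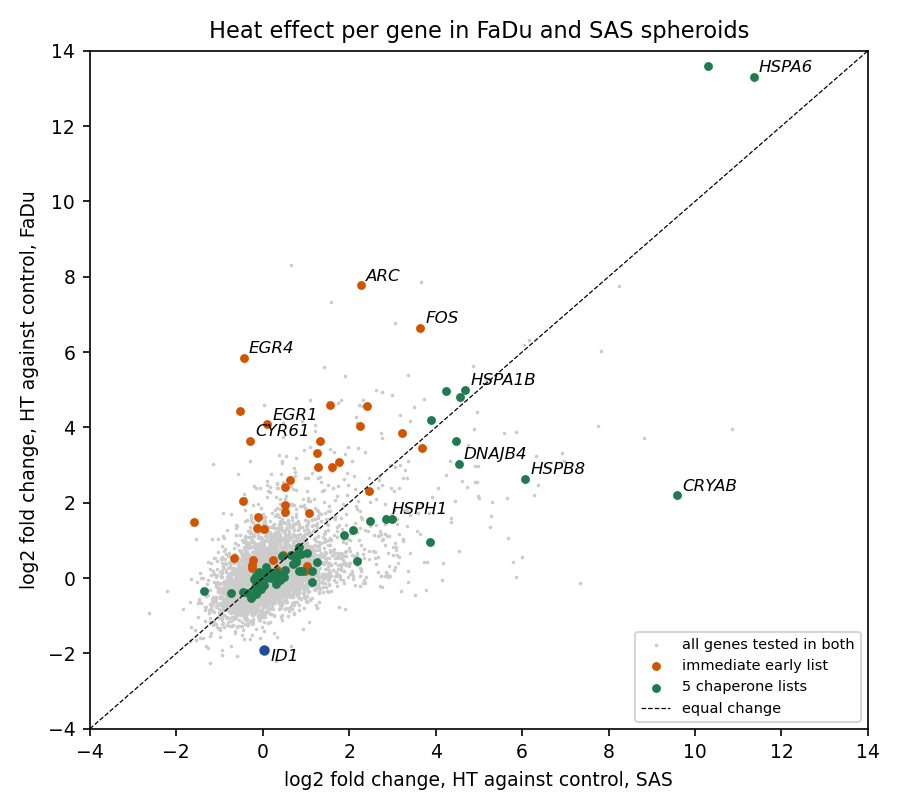
Log2 fold change of HT against control in FaDu (vertical) and SAS spheroids (horizontal) for genes tested in both, with immediate early genes in orange, the 5 chaperone lists in green, ID1 in blue and all other genes in grey. The dashed line marks equal change, and most orange points lie above it.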

How the data were processed

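Total RNA of whole spheroids was sequenced by the authors (NEBNext Ultra II Directional libraries, Illumina NovaSeq). The deposited values are raw read counts per Ensembl gene, made by the authors. Base calls were converted with bcl2fastq, while the aligner, the counting program, its strand setting and the annotation are not given in the sources used here. The labels name a mouse genome build beside human gene identifiers, so no coordinate was taken from the files. Controls repeated across tables had the same values in 12 of 12 columns and entered once. Totals were 17690374, 17763912 and 21862472 counts in FaDu control 1, 2 and 3 and 16794578, 18188944 and 17673528 in FaDu HT 1, 2 and 3. With the scaling, 1 count stands for 0.0441 CPM in control 3, which had the highest total. In HT 1, which had the lowest, it stands for 0.0623 CPM. Gene names and types came from GENCODE v29, which matched 56898 of 57500 identifiers, and the 602 others held 0.023% of the counts.

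Genes were tested by group in R 4.3.3 with edgeR 4.0.16 (filterByExpr with a minimum count of 10, TMM scaling, quasi-likelihood F test, Benjamini-Hochberg adjusted p), using the 6 FaDu HT and control libraries only. Genes with an adjusted p under 0.05 whose log2 fold change lay above 1 or below -1 are called altered. The standard error is the fold change divided by the root of F. CPM use the same scaling. The same fit was made for FaDu HT + RT against RT and SAS HT against control, and the difference between spheroid types is the interaction of type and heat over 12 libraries. A gene with no control count is given as at least the fold over a floor of 3 counts in the control group.

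Replicate numbers recur in both groups, so deviations from the group means were correlated between libraries. The correlation was 0.41, 0.20 and 0.20 for libraries of the same number and -0.27 to 0.15 for the others. All 3 correlations of the same number lay over 0.1, and the numbers were taken to pair the libraries, which comes from the data and not from the labels. Control 2 with HT 3 (0.14) and control 3 with HT 2 (0.15) also lay over 0.1. The values thus set replicate 1 apart and cannot show that numbers 2 and 3 pair. The printed tests stayed those by group, and the fit with the replicate block was run as an alternative. Other alternatives were RLE scaling, library size only, no count filter beyond 1 count, at least 10 counts in every library, DESeq2 1.42.0, all FaDu groups in 1 fit, glmTreat against a 2-fold change, and leaving out each library. Leaving out replicate 1 of both groups, each library of the interaction, and HT 1 from the gene lists were chosen after seeing the data.

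Gene lists and named genes were chosen with earlier results of these data known. Every list member could be named. Beside these, the rule took genes altered without overlap at an average log2 CPM of at least 1, namely the 12 highest and 12 lowest fold changes of all and of protein-coding genes, then the 10 largest gains and losses in CPM and the 6 genes of each direction with the largest difference from SAS, and the extreme members of gene families named by prefix. Clone-named and a few other genes that this rule took are not described. CHRNA4 and GIPC3 were chosen after their values were seen. Promoters were the 250 bases before RefSeq starts on GRCh38.p14. The irradiated SAS libraries and the deposited normalized values were not used. The code was tested on simulated data.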

Additional observations from a re-analysis of the deposited data

Results flagged for a closer look

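The heat effect differed between FaDu and SAS spheroids in the test of the difference itself (edgeR interaction, adjusted p under 0.05 and a difference beyond 1 in log2 units) for the following genes that the text names. Values are the FaDu minus the SAS log2 fold change, and each was picked out because that test called it.

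Among the immediate early genes that the test called, the FaDu effect was the higher one. The differences were 6.32 for EGR4, 5.53 for ARC, 5.0 for EGR3, 4.00 for EGR1, 3.98 for CYR61, 3.08 for EGR2 and 3.02 for FOS. Further ones were 2.55 for IER2, 2.36 for CSRNP1, 2.18 for NR4A1, 2.11 for JUN, 1.99 for RHOB, 1.81 for FOSB, 1.74 for JUNB, 1.71 for ZFP36, 1.48 for FOSL1, 1.37 for MAFF, 1.29 for ZFP36L1 and 1.28 for JUND. EGR3 and EGR4 thus differed more than any AP-1 subunit. Feedback phosphatases stood at 2.95 for DUSP1, 2.24 for DUSP2 and 1.32 for DUSP5, and stress response genes at 2.40 for ATF3 and 1.55 for PPP1R15A.

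Chaperone genes differed in both directions. HSPA7 (3.32, SE 0.78, adjusted p = 0.02) and HSPA6 (1.98, SE 0.53, adjusted p = 0.042) had the higher fold change in FaDu. The FaDu controls held only 6 counts of HSPA7 and 27 of HSPA6, and reads of this pair may have been assigned to either gene. The sizes of these 2 differences are therefore uncertain. HSPA4 (-1.21), HSPH1 (-1.25), BAG3 (-1.39), DNAJB4 (-1.47), HSPB8 (-3.40) and CRYAB (-7.43) had the lower one. The CRYAB value depends on the small count that the fit adds, because SAS controls held no count of this gene.

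Of the other genes, ANKRD37 (2.68), IL6 (2.30), ZNF703 (2.21), RRAD (2.07), CCL20 (1.82), CCNL1 (1.22), HIST3H2A (1.15) and ZC3H12A (1.04) had the higher fold change in FaDu. SNORD104 (-1.04), BCL2L11 (-1.05), KLF5 (-1.41), NFKBIZ (-1.62), BCDIN3D (-1.69), ID1 (-1.93), HMOX1 (-2.17), BMP4 (-2.40) and COL1A1 (-3.76) had the lower one. KLF5 and BCL2L11 fell in FaDu, while their log2 fold changes in SAS were 0.72 (adjusted p = 0.00055) and 0.60 (adjusted p = 0.0033). HMOX1 and COL1A1 did not pass the test in FaDu and had log2 fold changes of 2.25 (adjusted p = 2.3e-05) and 4.18 (adjusted p = 6.4e-07) in SAS. What sets the spheroid types apart was not tested.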

How the results depend on the processing

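Every altered gene kept its direction in each setting that tested it. Of the 789 altered genes, 787 were also altered with RLE scaling, 726 with library size only, 684 with DESeq2, 786 with the replicate block, 762 without the filter, 444 with the stricter filter, 778 with all FaDu groups in 1 fit and 733 without replicate 1 of both groups. Leaving out 1 library kept 643, 594 and 570 without control 1, 2 and 3 and 721, 630 and 580 without HT 1, 2 and 3. The count of altered genes was 1382 with no filter beyond 1 count, 463 with at least 10 counts in every library and 271 with glmTreat, which follows from more or fewer genes tested and from a stricter null. Leaving out 1 library gave 612 to 964. Genes past the adjusted p alone were 5189 with the replicate block, 4651 without replicate 1 of both groups and 1453 to 3258 with 1 library left out, in place of 2801, and the cause was not tested. More genes fell than rose in that count except without control 3, without HT 2 and without the filter. Altered genes of FaDu HT + RT against RT were 1385 without the filter and 461 with the stricter one, in place of 857, and 627 to 1050 with 1 library left out. The difference between spheroid types gave 368 to 523 genes with 1 library left out, in place of 471. Of 488 named genes, 93 passed only with the block, and 2 changed sign while passing in neither fit. Such a change of sign was found for 51 named genes with library size only and for 44 without HT 1. The altered call of 145 genes differed with the block, 142 of them altered only with it. With the block 928 genes were altered in place of 789, 940 for HT + RT against RT in place of 857, and 678 for the difference between spheroid types in place of 471. For the gene lists and named genes the block changed no other call beyond these and the values printed with the results. RLE scaling ended the call of 4 named genes and library size only of 6. DESeq2 ended it for 5 of 487. Leaving out 1 library ended it for 5 to 43. Depth limits genes with few counts in the controls, of which 106 altered upward had 1 to 10 counts in all.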

Other observations

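Several genes that differ between replicates more than between groups belonged to the hypoxia and MAP kinase lists. CA9, a carbonic anhydrase of hypoxic tumour cells, was at 5.52, 0.982 and 1.59 CPM in controls 1, 2 and 3 and at 5.36, 0.845 and 1.50 CPM in HT 1, 2 and 3. DUSP6, an ERK phosphatase, was at 18.9, 5.73 and 6.49 CPM in the controls and 15.6, 7.27 and 6.18 CPM after heating. Replicate 1 was high in both groups for each. The share of counts from antisense genes was 0.266, 0.302 and 0.299% in the controls and 0.315, 0.333 and 0.375% after heating. Genes with at least 1 count numbered 23158, 24065 and 24810 in the controls and 28404, 25711 and 26993 after heating, the most in HT 1, at similar depth.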
